A study of Mus musculus with 3 samples.

Results

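The genes described here encode nuclear-encoded subunits and assembly factors of the respiratory complexes II, III and IV and of the ATP synthase, complex V, together with cytochrome c. They were chosen by symbol, as every gene of the count tables whose name begins with Sdha, Sdhb, Sdhc, Sdhd, Uqcr, Cox followed by a digit, or Atp5, with Cyc1, Cycs, Sco1, Sco2 and Surf1 added and 8 isoform genes of complex IV (Cox4i1, Cox4i2, Cox6a1, Cox6a2, Cox7a1, Cox7a2, Cox8a and Cox8b) left out. This gave 57 of the 23238 gene symbols listed. The rule used symbols alone, but it was chosen with earlier results of these data known. By role they were 35 structural subunits (cytochrome c included), 16 assembly factors, 3 isoforms of complex IV known from restricted tissues, the supercomplex factor Cox7a2l, the coupling factor B gene Atp5s, and Atp5sl, which carries the name of complex V but belongs by its present name, Dmac2, to the assembly of complex I. The subunits encoded in the mitochondrial genome were not analysed here.

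RNA was sequenced from c2c12 cells, an immortalized mouse myoblast line that fuses into multinucleated myotubes when growth medium is replaced by myogenic induction medium. Cells cultured for 2 days in that medium on tissue culture plates (TCP), on hydrogels of methacrylated gelatin (GelMA), or on GelMA co-polymerized with the sulfonated heparin mimic PSS (GelMA-PSS, labelled as 15% GelMA with 1% PSS) gave 1 library per substrate. With no second culture on any substrate, the differences are values without a replicate check, and no test was run. The difference between both controls, GelMA and TCP, is the available measure of how far libraries without PSS lay apart. All cells came from this single immortalized line.

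The library totals were 119799095 counts (TCP), 87071144 (GelMA) and 192171443 (GelMA-PSS). Levels are given as CPM, the count scaled to the size of its library with TMM factors, and ratios as differences of log2(CPM + 1), a scale that understates the ratio of genes with low counts. Ranges in brackets after a ratio are 95% intervals of the ratio from the counts alone. They cover counting error, not the variation between cultures. Over the members their median width to either side was 0.031 for GelMA-PSS against GelMA. A gene was kept when its CPM was 1 or more in at least 1 library, which held for 13169 genes and for 54 of the 57 members. The other 3 were the isoform genes, with counts on TCP, GelMA and GelMA-PSS of 7, 6 and 59 for Cox6b2, of 6, 1 and 1 for Cox7b2 and of 0, 1 and 0 for Cox8c. A count of 3, the smallest taken as detected, corresponds to a CPM of 0.0246 on TCP, 0.0330 on GelMA and 0.0166 on GelMA-PSS.

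The respiratory chain passes electrons from nutrients to oxygen in the inner mitochondrial membrane. Complex II, succinate dehydrogenase, takes them from succinate and is also an enzyme of the citrate cycle. Complex III hands them to cytochrome c, and complex IV passes them from cytochrome c to oxygen. Complexes III and IV pump protons, and complex V lets these protons flow back through a ring of c subunits to drive ATP synthesis. In skeletal muscle this system supplies ATP for sustained contraction, and its content is known to increase as myoblasts mature into fibres. Complexes III, IV and V are mosaics of nuclear and mitochondrial gene products, whereas complex II is encoded in the nucleus alone.

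Nearly all of the respiratory genes had their highest level on GelMA-PSS. Of the 54 members past the filter, 49 lay above both controls, 4 below both and 1 between them, whereas 45.3% of all genes past the filter lay above both controls and 39.3% below both. Over the members the median log2 ratio was 0.62 to GelMA and 0.48 to TCP, set beside medians of 0.03 and 0.04 over all genes. The differences were modest in size. Of the members, 14 were 1.5-fold or more above both controls, where 8.08% of all genes were, and 0 were 2-fold or more above both, where 1.37% of all genes were. The shares of all genes are not matched for transcript length, and shares by length are given further on. Against GelMA alone 31 members passed 1.5-fold, with a background of 11.0%, and against TCP alone 14 did, with a background of 13.2%. The members took 0.969% of all counts on TCP, 0.902% on GelMA and 1.21% on GelMA-PSS. Bulk RNA cannot tell more transcript per cell from a different share of cells.

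The order of the libraries was nearly uniform too. In 46 of the 54 members (85.2%) GelMA-PSS was highest, TCP next and GelMA lowest, an order found in 22.7% of all genes. GelMA lay below TCP in 51 of the 54 members, where 51.7% of all genes lay below, with a median log2 ratio of -0.15. The controls thus differed in a shared direction among these genes. By the medians without a correction for length, they differed by less than GelMA-PSS differed from either. This did not hold for every gene, as Cox19 was at -0.44 between the controls and at 0.17 against TCP. Corrected for transcript length, the medians were -0.11 between the controls, 0.15 to GelMA and 0.09 to TCP. By coding length they were -0.0875, 0.13 and 0.047. Between both controls 0 members passed 1.5-fold in either direction, where 3.50% of all genes were higher and 2.12% lower on GelMA by this measure. The widest difference between the controls was that of Uqcrb, with a log2 ratio of -0.51 for GelMA against TCP.

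**Figure D1:**
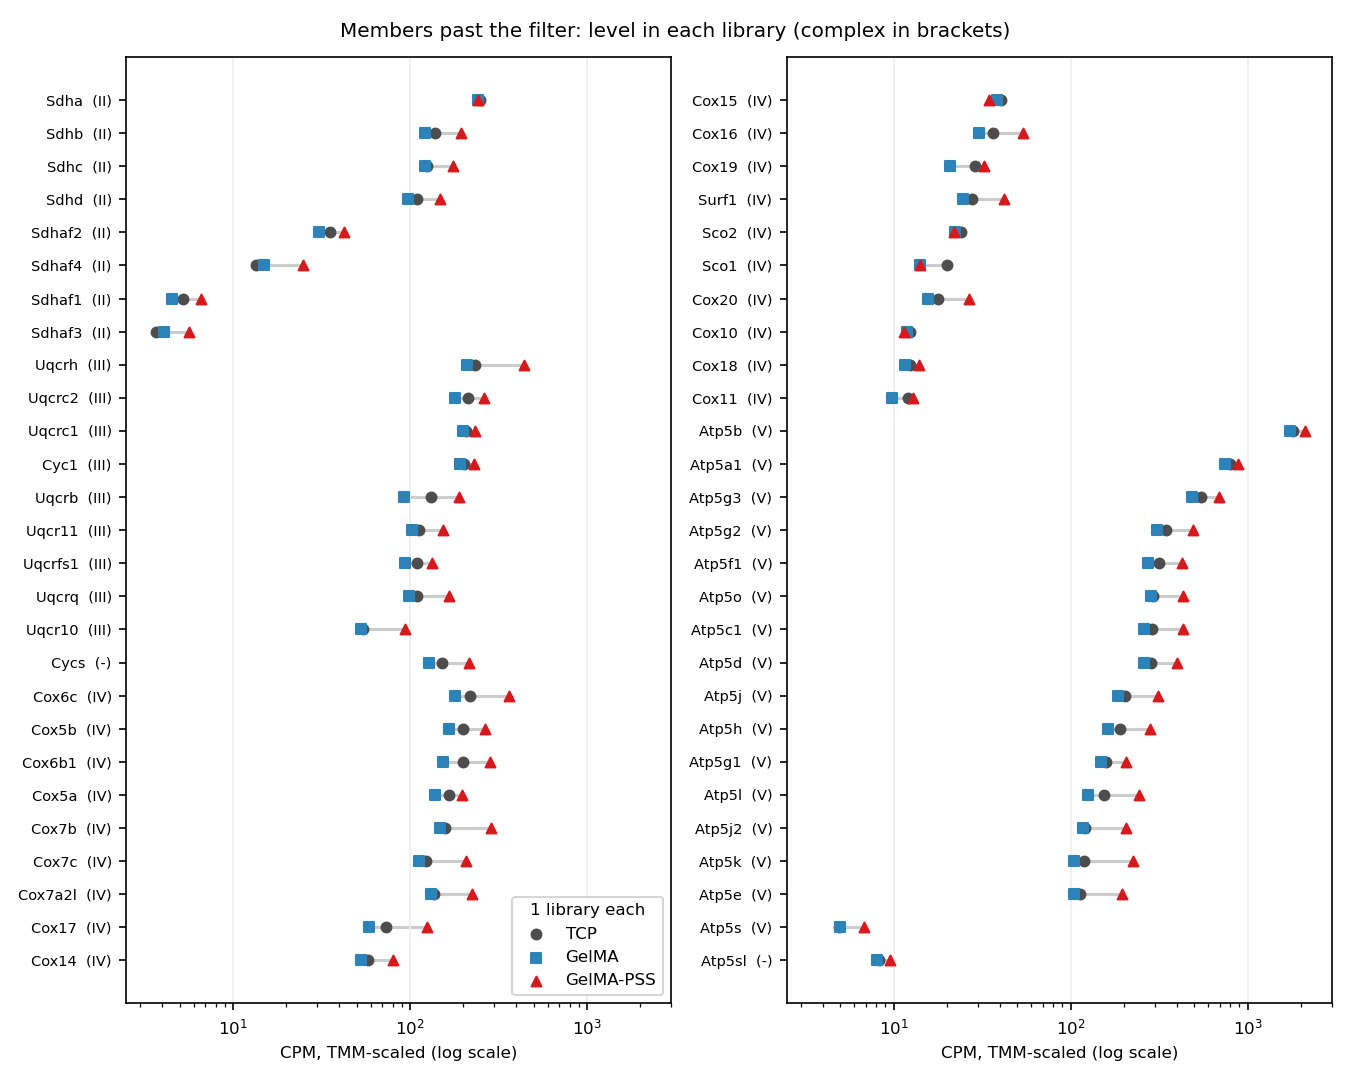
Level of each of the 54 members past the filter on TCP (circles), GelMA (squares) and GelMA-PSS (triangles), as TMM-scaled CPM on a log axis, with 1 library per substrate and the complex in brackets. The triangle is the rightmost mark for 49 genes, and it is the leftmost mark for Cox10, Cox15, Sco1 and Sco2.

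Measured per kilobase of transcript, the members spanned several orders of magnitude. The mean over libraries was highest for Atp5b, the catalytic beta subunit of complex V, at 986 CPM per kilobase, followed by the c-ring genes Atp5g3 at 799 and Atp5g2 at 650, and by Uqcrh at 537. Among the 54 members past the filter it was lowest for assembly and accessory factors, with 1.03 for Sdhaf3, 2.19 for Sdhaf1 and 3.62 for Atp5s. The widest interval for a ratio belonged to Sdhaf3.

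Promoter sequence was examined because so many members lay in the same direction. Nuclear respiratory factor 1 (NRF1) and the ETS-family factor NRF2, also called GABP, are textbook regulators of nuclear genes for the respiratory chain. The letters GCGCA, any base and GCGC were searched for NRF1, and CCGGAAG for the ETS family, on both strands, in 300-base windows from 250 bases before to 50 after each gene start (RefSeq, GRCm38.p6), and neither motif contains the other. A window was at hand for 47 of the 57 members. The NRF1 letters were found in 11 of them (23.4%), the ETS letters in 20 (42.55%) and either motif in 27 (57.45%). In the windows of all 27025 genes the shares were 5.19%, 9.93% and 13.99%, and in those of the 9861 genes past the filter they were 11.3%, 19.5% and 28.2%. Either motif was found in 6 of the 11 members with a window that were 1.5-fold or more above both controls and in 3 of the 4 that were lower than both. A match is a run of letters and not a measured binding site. The windows of 5 members are printed 5′ to 3′ with the matches in capitals, to show the range of the results. They are the 2 members with the highest ratios (Atp5k and Uqcrh) and the subunit gene with ratios near 0 (Sdha). The others are a member lower than both controls (Cox10) and a member with no exact match to either motif (Cycs).
Atp5k, chr5:108434350-108434649, minus strand: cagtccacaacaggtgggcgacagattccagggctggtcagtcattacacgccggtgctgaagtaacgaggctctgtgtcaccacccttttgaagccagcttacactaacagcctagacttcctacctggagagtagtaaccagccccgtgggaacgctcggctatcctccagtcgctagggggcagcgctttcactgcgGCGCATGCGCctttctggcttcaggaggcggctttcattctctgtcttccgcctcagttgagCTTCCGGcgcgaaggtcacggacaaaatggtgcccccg
Uqcrh, chr4:116075021-116075320, minus strand: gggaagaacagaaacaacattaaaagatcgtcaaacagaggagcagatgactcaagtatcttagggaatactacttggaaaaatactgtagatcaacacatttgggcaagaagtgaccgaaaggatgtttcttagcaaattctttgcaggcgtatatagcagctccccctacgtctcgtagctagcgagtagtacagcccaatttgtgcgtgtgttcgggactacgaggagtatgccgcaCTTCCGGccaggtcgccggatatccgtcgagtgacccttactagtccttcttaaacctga
Sdha, chr13:74350191-74350490, minus strand: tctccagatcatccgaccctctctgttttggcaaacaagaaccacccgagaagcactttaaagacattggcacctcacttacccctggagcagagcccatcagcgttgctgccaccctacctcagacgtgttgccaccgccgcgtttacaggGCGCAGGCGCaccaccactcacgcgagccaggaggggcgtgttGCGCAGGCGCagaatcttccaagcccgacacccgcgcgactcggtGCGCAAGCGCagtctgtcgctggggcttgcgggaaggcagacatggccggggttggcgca
Cox10, chr11:64079423-64079722, minus strand: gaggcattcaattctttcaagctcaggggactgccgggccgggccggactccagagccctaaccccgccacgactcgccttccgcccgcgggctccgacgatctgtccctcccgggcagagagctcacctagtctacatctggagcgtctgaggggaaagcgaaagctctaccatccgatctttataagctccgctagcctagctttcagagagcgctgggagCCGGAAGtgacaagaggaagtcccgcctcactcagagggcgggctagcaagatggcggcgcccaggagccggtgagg
Cycs, chr6:50566520-50566819, minus strand: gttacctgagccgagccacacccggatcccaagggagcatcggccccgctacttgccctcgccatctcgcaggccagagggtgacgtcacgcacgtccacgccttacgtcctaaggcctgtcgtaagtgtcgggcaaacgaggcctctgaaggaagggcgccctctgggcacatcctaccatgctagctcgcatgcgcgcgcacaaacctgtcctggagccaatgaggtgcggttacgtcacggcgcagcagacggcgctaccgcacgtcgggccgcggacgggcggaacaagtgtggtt
Atp5k held 1 NRF1 match and 1 ETS match, Uqcrh and Cox10 held 1 ETS match each, Sdha held 3 NRF1 matches and Cycs held 0 exact matches of either motif. The Cycs window does hold a run of letters that differs from the NRF1 motif at 1 position, which the search did not count.

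In complex II the flavoprotein gene stood apart from the other subunits before correction for length. Sdha (chromosome 13, 74322254 to 74350280, minus strand, GRCm38), which encodes the catalytic flavoprotein, had a CPM of 248 on TCP, 241 on GelMA and 242 on GelMA-PSS, and its log2 ratio was 0.00 [-0.02 to 0.03] against GelMA and -0.04 [-0.06 to -0.01] against TCP. It was the single member with a GelMA-PSS level between those of the controls. Sdhb, which encodes the iron-sulfur subunit that receives the electrons from Sdha, had a CPM of 139 on TCP, 122 on GelMA and 194 on GelMA-PSS. The log2 ratio of Sdhb was 0.66 against GelMA [0.64 to 0.70] and 0.48 against TCP [0.45 to 0.51]. The products of both genes occur once each in the complex, and the ratio of their transcripts was not the same across these libraries. After the correction for coding length given further on, ratios to the mean of both controls were 0.07 for Sdha and 0.35 for Sdhb. Those of Sdhc and Sdhd were 0.10 and 0.09. By transcript length Sdha, Sdhb, Sdhc and Sdhd were at -0.05, 0.15, 0.52 and 0.13.

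The membrane anchor genes of complex II lay close to Sdhb before correction for length. Sdhc had a CPM of 125 on TCP, 121 on GelMA and 176 on GelMA-PSS, with log2 ratios of 0.53 to GelMA and 0.49 to TCP. Sdhd had a CPM of 109 on TCP, 97.2 on GelMA and 149 on GelMA-PSS, with log2 ratios of 0.61 and 0.44. For Sdhb, Sdhc and Sdhd the GelMA-PSS level was above both controls, and none of the 4 subunit genes was 1.5-fold or more above both.

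Before correction for length, the assembly factors of complex II, which mature its flavoprotein and iron-sulfur subunits, were higher on GelMA-PSS than on both controls for all 4 genes. Corrected for coding length, ratios to the mean of both controls were -0.16 (Sdhaf1), -0.06 (Sdhaf2), -0.08 (Sdhaf3) and 0.19 (Sdhaf4). By transcript length they were 0.28, -0.18, 0.61 and 0.19. Sdhaf4, an assembly factor of the flavoprotein, had a CPM of 13.4 on TCP, 15.0 on GelMA and 24.9 on GelMA-PSS, with log2 ratios of 0.69 to GelMA [0.64 to 0.82] and 0.84 to TCP [0.81 to 0.97]. It was the single gene of complex II past 1.5-fold against both controls. Sdhaf2, which inserts the flavin cofactor, had a CPM of 35.4 on TCP, 30.7 on GelMA and 42.4 on GelMA-PSS. Sdhaf1 and Sdhaf3, which serve the iron-sulfur subunit, reached 6.61 and 5.63 on GelMA-PSS, from 5.23 and 3.70 on TCP and 4.54 and 4.07 on GelMA. Sdhaf3 and Sdhaf4 were also higher on GelMA than on TCP, an order that besides them was seen in Atp5s alone.

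Complex III was higher on GelMA-PSS than on both controls in all 9 measured genes. Without correction for length, the smaller accessory subunits lay ahead of the catalytic and core ones. Corrected for coding length, ratios to the mean of both controls were 0.38 for Uqcrc2, 0.16 for Uqcrc1, 0.16 for Uqcrfs1 and 0.046 for Cyc1. For the accessory subunits they were 0.35 (Uqcrh), 0.21 (Uqcrb), 0.06 (Uqcr10), 0.02 (Uqcrq) and -0.27 (Uqcr11). Cyc1 encodes cytochrome c1, the heme protein that reduces cytochrome c. Its CPM was 203 on TCP, 191 on GelMA and 229 on GelMA-PSS, a log2 ratio of 0.26 to GelMA [0.23 to 0.28] and 0.17 to TCP [0.15 to 0.19]. Uqcrfs1, which encodes the Rieske iron-sulfur protein, had a CPM of 109 on TCP, 94.3 on GelMA and 134 on GelMA-PSS, with log2 ratios of 0.50 and 0.29. The core genes, whose products face the matrix, were at 208, 200.02 and 233 (Uqcrc1) and at 212, 179 and 262 (Uqcrc2) on TCP, GelMA and GelMA-PSS. None of these 4 genes was 1.5-fold above both controls.

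The accessory subunits of complex III gave the larger ratios before correction for length. Corrected for transcript length, they ranged from -0.14 to 0.36 against the mean of both controls, and the catalytic and core genes from -0.09 to 0.22. Uqcrh, the hinge protein at the docking site of cytochrome c, had a CPM of 233 on TCP, 211 on GelMA and 438 on GelMA-PSS, which came to log2 ratios of 1.05 [1.04 to 1.08] and 0.91 [0.89 to 0.93] against GelMA and TCP. Uqcr10, a small membrane subunit, had a CPM of 54.1 on TCP, 52.7 on GelMA and 93.4 on GelMA-PSS. For both genes GelMA-PSS stood well above a pair of controls that lay close together, and with Uqcrq they were the 3 genes of complex III past 1.5-fold against both. Uqcrb was at 132 on TCP, 92.4 on GelMA and 189 on GelMA-PSS, so that its log2 ratio of 1.02 against GelMA was 0.51 against TCP. Uqcr11, the smallest of the accessory subunits by coding length, had a CPM of 113, 103 and 154 on TCP, GelMA and GelMA-PSS. Near copies (at least 95% identity over the length of a read or more) exist in other annotated transcripts for Uqcrb (3 copies) and Uqcr11 (2), so their counts are uncertain, whereas Uqcrh and Uqcr10 had 0 such copies.

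Cytochrome c, encoded by Cycs, carries electrons from complex III to complex IV and is known outside the mitochondria as a trigger of apoptosis. It was at a CPM of 152 on TCP, 128 on GelMA and 215 on GelMA-PSS, with log2 ratios of 0.74 to GelMA [0.72 to 0.78] and 0.50 to TCP [0.48 to 0.53]. The ratio of the carrier was thus above that of its donor Cyc1 against either control, by intervals that did not overlap, though not after correction for coding length. Cycs has 10 near copies among other transcripts, and its counts carry that uncertainty.

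Without correction for length, complex IV held every member below both controls, and all 4 of these were assembly factors. Its 6 measured subunit genes all lay above both controls, with medians of 0.88 to GelMA and 0.62 to TCP on the log2 scale. The 12 assembly factors had medians of 0.47 and 0.16, with 8 above and 4 below both controls. Of all genes past the filter, 45.3% lay above both and 39.3% below both. Against the mean of both controls, the medians corrected for transcript length were 0.14 for the subunits and -0.02 for the assembly factors. By coding length they were 0.07 and -0.07. Since the rule left out 8 isoform genes of this complex, the 6 subunits are a sample of its nuclear subunits and not the whole set.

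Cox7b, a small membrane subunit, had a CPM of 157 on TCP, 147 on GelMA and 288 on GelMA-PSS, and log2 ratios of 0.96 to GelMA [0.94 to 0.99] and 0.87 to TCP [0.85 to 0.89]. Cox6c was at 219 on TCP, 179.9 on GelMA and 362 on GelMA-PSS, with log2 ratios of 1.00 and 0.72. Cox7c was at 124 on TCP, 112 on GelMA and 208 on GelMA-PSS, with ratios of 0.89 and 0.75. These 3 membrane subunits were 1.5-fold or more above both controls, and each has 2 or 3 near copies elsewhere in the annotated transcripts.

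The matrix-facing and intermembrane subunits of complex IV gave smaller ratios. Cox5a, which lies on the matrix side, had a CPM of 167 on TCP, 138 on GelMA and 197 on GelMA-PSS, with log2 ratios of 0.51 and 0.24. Its neighbour Cox5b, a zinc-binding subunit, was at 199, 167 and 264 on TCP, GelMA and GelMA-PSS. Cox6b1, which bridges the monomers of the dimer on the intermembrane side, was at 198, 154 and 283. For Cox5a, Cox5b and Cox6b1 the log2 ratio of GelMA against TCP lay between -0.36 and -0.26, so the ratio of GelMA-PSS depended on the control.

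Among the assembly factors of complex IV, those below both controls make heme A (Cox10 and Cox15) or deliver copper (Sco1 and Sco2). Over all genes past the filter, 39.3% lay below both controls. Cox10 and Cox15 act in sequence to turn heme B into heme A, the cofactor of complex IV. Cox15 (chromosome 19, 43733254 to 43753000, minus strand) had a CPM of 40.6 on TCP, 38.6 on GelMA and 34.5 on GelMA-PSS, with log2 ratios of -0.16 to GelMA [-0.22 to -0.10] and -0.23 to TCP [-0.29 to -0.18]. Cox10 had a CPM of 12.5 on TCP, 11.9 on GelMA and 11.5 on GelMA-PSS, a ratio of -0.04 against GelMA whose counting interval [-0.15 to 0.06] held 0, and of -0.11 against TCP [-0.21 to -0.02]. Cox15 was thus the single gene of the set whose level on GelMA-PSS was below both controls by more than counting error, before the correction for transcript length given further on, which turned its sign.

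Sco1 and Sco2 are copper chaperones that load the copper site of a mitochondrially encoded subunit. Sco1 had a CPM of 20.2 on TCP, 14.2 on GelMA and 14.1 on GelMA-PSS, so that both hydrogels lay below TCP and the ratio was -0.01 against GelMA [-0.11 to 0.09] and -0.49 against TCP [-0.60 to -0.44]. Sco2 had a CPM of 23.9 on TCP, 22.3 on GelMA and 21.9 on GelMA-PSS, with ratios of -0.02 [-0.10 to 0.05] and -0.12 [-0.20 to -0.06]. Both genes were lower on both hydrogels than on TCP by more than counting error, and for neither did the interval between the hydrogels exclude 0. Sco2 shares 68.8% of its transcript with Tymp and Sco1 shares 6.18% of its own with 7 other genes.

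Cox17, the copper chaperone that passes copper on to Sco1, Sco2 and Cox11, went the other way. On chromosome 16 (38346991 to 38352763, plus strand), its CPM was 73.2 on TCP, 58.6 on GelMA and 124 on GelMA-PSS, a log2 ratio of 1.07 to GelMA [1.04 to 1.13] and 0.75 to TCP [0.73 to 0.80]. Within the copper pathway the GelMA-PSS level was therefore higher than both controls for Cox17 and not for the chaperones it feeds in Sco1 and Sco2. Cox17 shares 9.78% of its transcript with 4 other genes. Cox16, a factor in the maturation of a copper-carrying subunit, had a CPM of 36.3 on TCP, 30.4 on GelMA and 54.0 on GelMA-PSS, though 88.9% of its transcript is shared with Gm20498. Surf1, a factor of early assembly known from Leigh syndrome, was at 27.9 on TCP, 24.6 on GelMA and 42.0 on GelMA-PSS, with log2 ratios of 0.74 and 0.57 and 0 near copies. The remaining 5 assembly factors (Cox11, Cox14, Cox18, Cox19 and Cox20) were above both controls, with log2 ratios against TCP between 0.08 and 0.56.

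**Figure D2:**
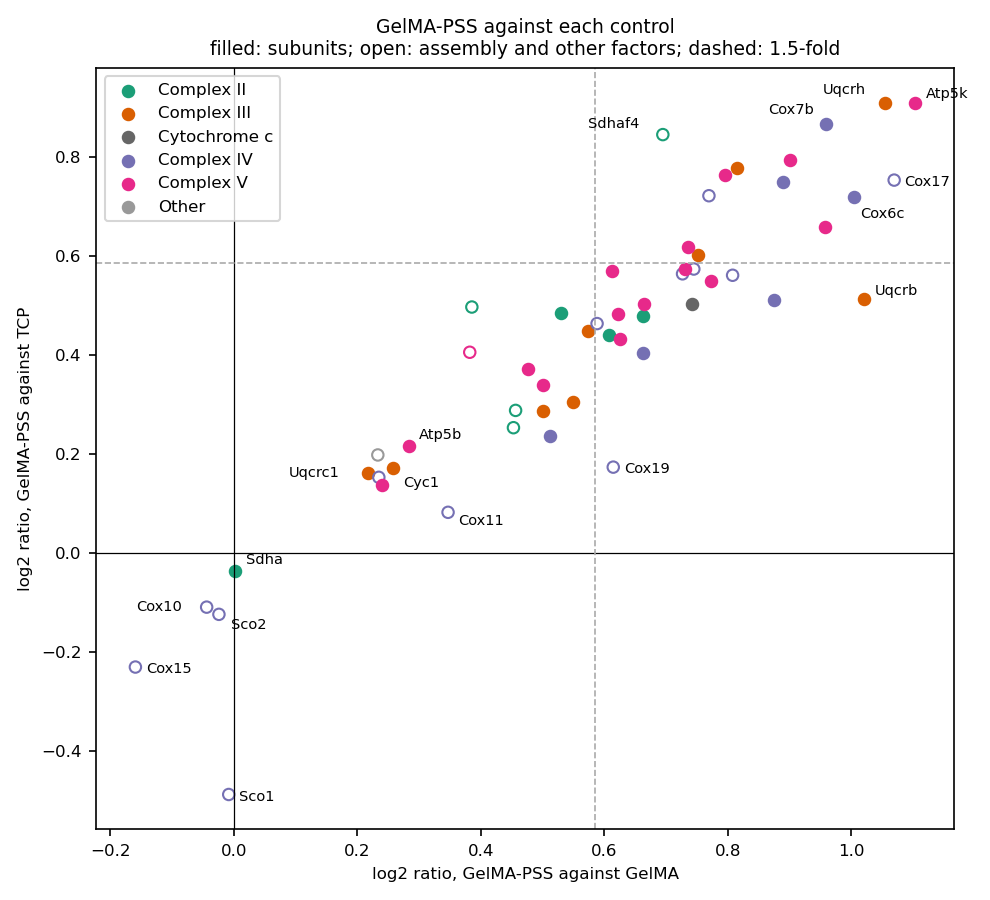
Log2 ratio of GelMA-PSS against GelMA (horizontal axis) and against TCP (vertical axis) for the 54 members past the filter, coloured by complex, with subunits filled and other factors open and 1.5-fold as dashed lines. Both ratios contain the same GelMA-PSS library, so the points follow a diagonal in part by construction, and the 14 genes above and to the right of the dashed lines are those 1.5-fold or more above both controls.

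Complex V was higher on GelMA-PSS in all 16 measured genes, and the ratios differed by role. Without correction for length, the catalytic F1 genes, where ATP is made, had the smallest ratios. Atp5b had a CPM of 1818 on TCP, 1736 on GelMA and 2113 on GelMA-PSS, with log2 ratios of 0.28 to GelMA [0.27 to 0.29] and 0.22 to TCP [0.21 to 0.22]. Atp5a1, the alpha subunit, was at 799 on TCP, 745 on GelMA and 879 on GelMA-PSS, with ratios of 0.24 and 0.14. By role, the median ratio to the mean of both controls (log2) was 0.22 for these 2 genes, 0.42 for the 3 c-ring genes, 0.63 for the 4 peripheral stalk genes, 0.65 for the 3 genes of the F1 stalk and 0.81 for the 3 small membrane subunits. Corrected for coding length, these medians were 0.24, -0.06, 0.25, 0.14 and 0.23 in the same order. By transcript length they were 0.07, -0.03, 0.09, 0.19 and 0.30, so the order of the roles depended on the correction.

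The membrane subunits Atp5k, Atp5l and Atp5j2, of which Atp5k and Atp5l serve the dimer of the enzyme, were each 1.5-fold or more above both controls. Atp5k (chromosome 5, 108433244 to 108434448, minus strand) had a CPM of 120 on TCP, 104 on GelMA and 225 on GelMA-PSS, with log2 ratios of 1.10 to GelMA [1.08 to 1.14] and 0.91 to TCP [0.89 to 0.94]. It had the highest ratio of all 54 members, and 56.6% of its transcript is shared with 1 near copy. Atp5l was at 154 on TCP, 125 on GelMA and 243 on GelMA-PSS, with ratios of 0.96 and 0.66 and with 10 near copies in other transcripts. In the F1 stalk, which turns within the catalytic head, Atp5e was at 113 on TCP, 104 on GelMA and 196 on GelMA-PSS. The ratios of Atp5e, 0.90 and 0.79, exceeded those of Atp5c1 (0.73 and 0.57) and Atp5d (0.62 and 0.48). With Atp5j of the peripheral stalk and the membrane subunits, Atp5e made up the 5 genes of complex V past 1.5-fold against both controls. The peripheral stalk genes Atp5f1, Atp5h, Atp5j and Atp5o lay within a narrow range, 0.53 to 0.68 against the mean of the controls.

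The c-ring is built from 1 protein that 3 genes encode, and these genes permit a comparison within the complex. Atp5g1 (chromosome 11, 96068852 to 96075670), Atp5g2 (chromosome 15, 102662864 to 102672352) and Atp5g3 (chromosome 2, 73908447 to 73911326), all on the minus strand, have coding sequences of 136, 146 and 141 codons that begin with different mitochondrial targeting signals. Translated from GENCODE vM21 (GRCm38), their last 78 codons gave the same amino acids, while 63 of the 234 bases differed among the 3 genes. Pairwise, 84.6% of these bases were identical between Atp5g1 and Atp5g2, 78.6% between Atp5g1 and Atp5g3 and 77.4% between Atp5g2 and Atp5g3. The last 40 codons (120 bases) are printed 5′ to 3′ with the 30 positions that differ in capitals, to show how far reads of one gene can be told from those of another.
Atp5g1: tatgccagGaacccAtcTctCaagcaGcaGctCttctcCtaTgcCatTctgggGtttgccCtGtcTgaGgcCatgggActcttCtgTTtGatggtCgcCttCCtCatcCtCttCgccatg
Atp5g2: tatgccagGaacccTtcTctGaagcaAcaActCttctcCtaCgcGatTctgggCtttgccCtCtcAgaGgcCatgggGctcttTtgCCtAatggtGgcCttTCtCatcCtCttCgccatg
Atp5g3: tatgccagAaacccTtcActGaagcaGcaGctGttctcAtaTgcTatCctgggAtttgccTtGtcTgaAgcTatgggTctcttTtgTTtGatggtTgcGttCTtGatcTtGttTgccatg
Atp5g1 had a CPM of 159 on TCP, 148 on GelMA and 206 on GelMA-PSS. Atp5g2 was at 345 on TCP, 308 on GelMA and 489 on GelMA-PSS. Atp5g3 was at 545 on TCP, 487 on GelMA and 690.0 on GelMA-PSS. All 3 genes were higher on GelMA-PSS than on both controls, and their order was the same in each library, also per kilobase of transcript.

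Without correction for length, the make-up of the trio shifted slightly toward Atp5g2. Its share of the trio's counts was 32.9% on TCP (Wilson interval 32.6 to 33.1), 32.7% on GelMA (32.4 to 33.0) and 35.3% on GelMA-PSS (35.1 to 35.5). The share of Atp5g3 was 51.9% on TCP, 51.7% on GelMA and 49.8% on GelMA-PSS, and that of Atp5g1 was 15.2%, 15.7% and 14.9%. The shift of Atp5g2 exceeded counting error and the difference between the controls, at less than 3 percentage points in size, and it was not tested against variation between cultures. Atp5g2 shares 88.2% of its transcript with near copies, so reads of those copies may enter its share. Corrected for transcript length, log2 ratios to the mean of both controls were 0.36 (Atp5g1), -0.03 (Atp5g2) and -0.14 (Atp5g3). By coding length they were -0.06, 0.12 and -0.06, so the gene with the highest ratio depended on the measure of length.

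Set side by side, the complexes differed less from each other than their members did among themselves. Against the mean of both controls the median log2 ratio was 0.47 for complex II (8 genes, range -0.02 to 0.77), 0.51 for complex III (9 genes, 0.19 to 0.98), 0.53 for complex IV (19 genes, -0.25 to 0.91) and 0.59 for complex V (16 genes, 0.19 to 1.01). The members at 1.5-fold or more above both controls were 1 of 8 in complex II, 3 of 9 in complex III, 5 of 19 in complex IV and 5 of 16 in complex V, where 8.08% of all genes, of any length, were. The 5 of complex IV include Cox7a2l, which stabilizes supercomplexes of complexes III and IV, at a CPM of 136 on TCP, 132 on GelMA and 225 on GelMA-PSS. By their medians without a correction for length, role separated the genes more than complex did, with 0.58 for the 35 subunits (cytochrome c included), of which 34 lay above both controls, and 0.38 for the 16 assembly factors, of which 12 did.

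Genes of like function outside the set gave a frame for these values. Complex I, chosen by the prefix Nduf, had 43 of 44 genes above both controls, 15 of them by 1.5-fold or more, with a median of 0.62 against the mean of the controls. The mitochondrial ribosomal proteins had 76 of 77 genes above both controls, 22 of them by 1.5-fold or more, with a median of 0.51. Of 80 genes of the cytosolic ribosome 79 passed 1.5-fold, with a median of 0.99. The median over complexes II to V was 0.53. After correction for transcript length the medians were 0.14 for complexes II to V, 0.09 for complex I, 0.14 for the mitochondrial and 0.47 for the cytosolic ribosome.

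**Figure D3:**
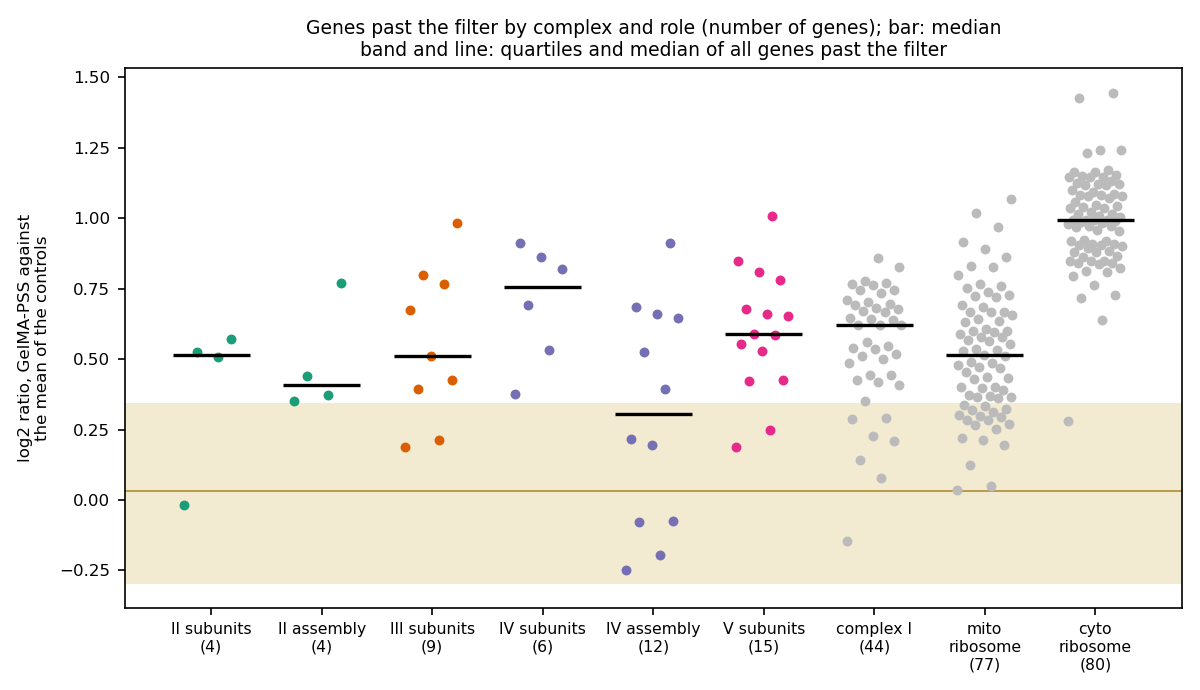
Log2 ratio of GelMA-PSS against the mean of both controls for each gene past the filter, by complex and role, with the number of genes in brackets and a bar at the median. The shaded band and line show the quartiles and the median (0.03) of all genes past the filter. Subunits of complex IV have the highest median among complexes II to V, 0.76, and its assembly factors the lowest of the groups shown, 0.30.

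The other genes of the pathway were read from lists by function. Of all genes past the filter, 45.3% lay above both controls, 39.3% below both, and 8.08% were 1.5-fold or more above both. Of 6 assembly factors of complex III outside the set, 4 lay above and 0 below both controls, and Uqcc2 passed 1.5-fold at a CPM of 118 on TCP, 104 on GelMA and 179 on GelMA-PSS. Of 12 further factors of complex IV, among them Ndufa4, which the prefix Nduf also counts under complex I, 8 lay above and 3 (Coa5, Taco1 and Lrpprc) below both controls, and 2 (Coa6 and Pet100) passed 1.5-fold. Lrpprc, which stabilizes mitochondrial mRNA, was at 123 on TCP, 114 on GelMA and 89.5 on GelMA-PSS. All 6 assembly and regulation genes of complex V lay above both controls, and 3 passed 1.5-fold. Among these, Atpif1, the inhibitor that stops the enzyme from running in reverse, was at 86.1 on TCP, 81.4 on GelMA and 164 on GelMA-PSS. Corrected for transcript length, the list medians against the mean of both controls were 0.03, 0.02 and 0.27 for complexes III, IV and V. By coding length they were -0.07, -0.03 and 0.19.

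Genes for the regulators were split in direction, as all genes were. Of 11 genes for mitochondrial transcription and its regulators, 4 lay above both controls (Tfam, Tfb1m, Esrra and Gabpb1). A further 5 lay below both (Ppargc1a, Ppargc1b, Pprc1, Gabpa and Polrmt). Of all genes past the filter, 45.3% lay above both controls and 39.3% below both. For Gabpb1 the log2 ratio to GelMA was only 0.001. Ppargc1b, a coactivator of mitochondrial biogenesis, had a CPM of 9.77 on TCP, 11.5 on GelMA and 5.01 on GelMA-PSS and was the 1 gene of the list 1.5-fold or more below both controls, where 7.18% of all genes were. Tfam, which packages mitochondrial DNA, was at 43.7 on TCP, 43.2 on GelMA and 58.5 on GelMA-PSS. Nrf1, whose letters were searched in the promoters, was at 31.8 on TCP, 36.4 on GelMA and 35.9 on GelMA-PSS, between the controls. Of 14 citrate cycle genes, which share complex II with the respiratory chain, 9 lay above and 2 below both controls, 0 by 1.5-fold in either direction.

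Transcript length moved with the ratios. Over the 54 members, Spearman's rho between length and the log2 ratio to the mean of both controls was -0.63 for transcript length and -0.75 for coding length. Over all genes past the filter it was -0.59 (13055 genes) and -0.56 (12335 genes). The points share the same 3 libraries, and rho is given as a description. Members are short, with a median coding length of 430.5 bases where that of all genes past the filter was 1401 bases. Within the members the order of the values given above follows length in several places, as in the long Sdha, Atp5a1, Atp5b and Uqcrc1 against the short Atp5k, Uqcrh and Cox7b.

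Compared with genes of the same length, the members stood out less. In transcripts of up to 500 bases the median log2 ratio was 0.80 for 5 members and 0.56 for all 241 genes. It was 0.68 for 18 members and 0.56 for 892 genes from 500 to 1000 bases, 0.41 for 18 members and 0.31 for 2920 genes from 1000 to 2000 bases, and 0.39 for 13 members and -0.10 for 9000 genes above 2000 bases. From the shortest band on, 3 of 5, 8 of 18, 2 of 18 and 1 of 13 members were 1.5-fold or more above both controls. Of all genes in these bands, 105 of 241, 337 of 892, 394 of 2920 and 214 of 9000 were. After subtraction of the trend with transcript length over all genes, the median over the members was 0.14, with 38 of 54 above 0 where 50.5% of all genes with a length were, and 1 member, Cox17, stayed 1.5-fold or more above both controls. Its annotated transcripts are 444 and 3690 bases long and their median was used. The corrected ratio of Cox17 to the mean of both controls was 0.75 by transcript length and 0.17 by coding length. By coding length 0 members stayed 1.5-fold or more above both controls. By complex the medians corrected for transcript length were 0.17 for complex II, 0.14 for complex III, 0.04 for complex IV and 0.13 for complex V. With coding length in place of transcript length they were 0.08, 0.16, 0.03 and 0.18, so the order of the complexes changed with the measure of length. The F1 catalytic core, at 0.22 without correction, was at 0.07 after correction for transcript length and at 0.24 for coding length, and the c-ring, at 0.42 without correction, was at -0.03 and -0.06. For the 35 subunits the corrected median was 0.14 by either length, whereas for the 16 assembly factors it was 0.02 by transcript length and -0.07 by coding length. By transcript length this gap between roles was no wider than that between the highest and the lowest complex. The sign of the ratio to the mean of both controls turned in 13 members after correction for transcript length and in 12 for coding length. Among these, Cox15, at -0.19 without correction, was at 0.04 by transcript length and at -0.28 by coding length. Cycs and Cyc1, apart without correction, were at 0.049 and 0.046 by coding length and at 0.62 and -0.085 by transcript length.

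**Figure D4:**
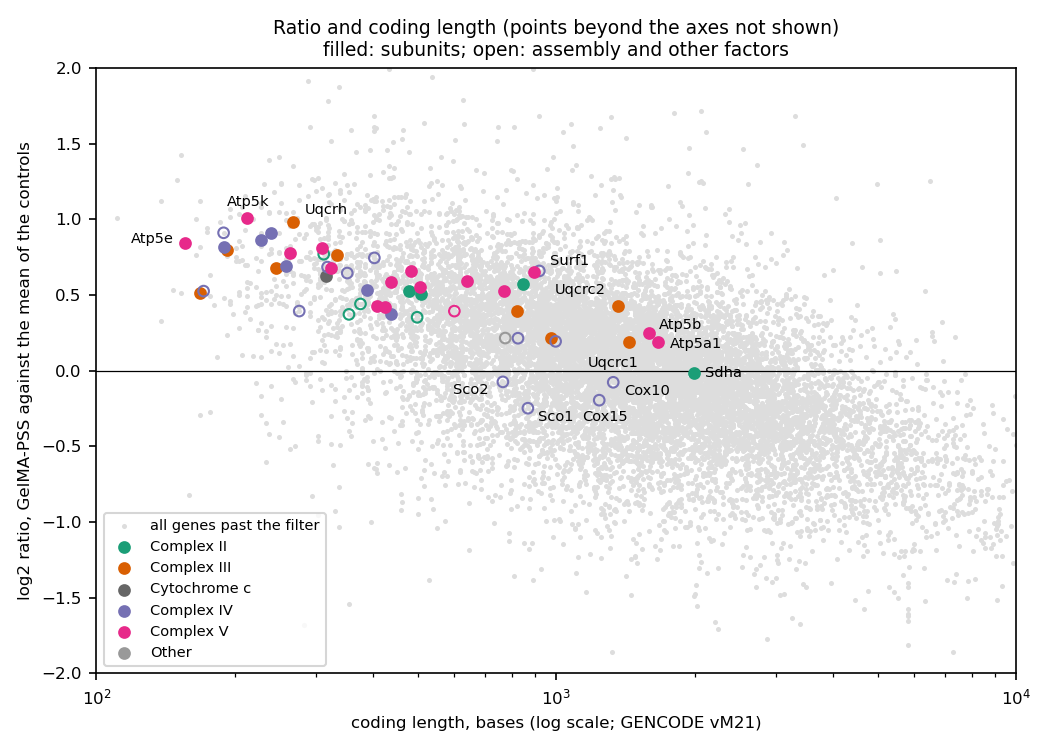
Log2 ratio of GelMA-PSS against the mean of both controls plotted against coding length in bases on a log axis, for all genes past the filter (grey) and for the members by complex (coloured, subunits filled). The members follow the downward trend of all genes, with Atp5k and Uqcrh at the short end near 1.0 and Sdha at the long end near 0.

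Markers of differentiation also differed between the libraries. The summed CPM of 6 myotube genes (Myog, Ckm, Myh3, Myh1, Actc1 and Tnnt3) was 20506 on TCP, 13611 on GelMA and 9985 on GelMA-PSS, with Myh3 at 10182, 6355.5 and 3037. The 5 myoblast genes summed to 4087, 3608 and 3988, with Myod1 and Myf5 highest and Pax7 lowest on GelMA-PSS. The order of this sum, TCP above GelMA above GelMA-PSS, was also that of Myh3, Myh1, Ckm and Actc1, whereas Myog (1100, 895 and 1037 on TCP, GelMA and GelMA-PSS) and Tnnt3 (4152.5, 2856.5 and 3117) were lowest on GelMA. Of the members, Cox10, Cox15, Sco1 and Sco2 had the order of the sum (7.41%), an order found in 21.2% of all genes past the filter. A further myotube gene, Mymk, was not used here. Defining genes of other cell types were mostly at or near 0, with summed CPM over 5 macrophage genes between 1.69 and 1.86, over 4 endothelial genes between 0.682 and 0.906 and over 4 adipocyte genes of at most 0.0985. Of 3 neuronal genes Snap25 passed the filter, and their sum lay between 2.00 and 3.87. Of 4 epithelial genes the one past the filter was Cdh1, at 10.2 on TCP, 8.26 on GelMA and 5.31 on GelMA-PSS. The part of the state of differentiation in the levels of the respiratory genes was not tested.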

How the data were processed

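The values are raw counts per gene symbol, deposited by the authors as 1 table per library without normalization. Their processing notes name TopHat, edgeR and the builds mm10 and hg19, with no roles. The counting tool and annotation are not given in the sources used here. The methods describe a TruSeq kit with 101 bp strand-specific paired-end reads, and the labels a SMARTER kit. Whether read pairs or their single reads were counted is not stated, and in the second case the intervals are too narrow.

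Each table held 23282 lines. Lines of the 35 repeated symbols were summed, which gave 23238 symbols. CPM used TMM factors (1.02, 1.04 and 0.943 for TCP, GelMA and GelMA-PSS; edgeR 4.0.16, R 4.3.3). Intervals are conditional binomial for ratios and Wilson for shares, at 95% (scipy 1.17.1). With 1 library per substrate there was no test, and CPM stood in for the FPKM of the methods. Lengths came from GENCODE vM21 (GRCm38) for all 57 members, 56 by their symbol and Atp5sl by a synonym. The length correction subtracted a loess fit with a span of 0.3 (statsmodels 0.14.6). Near copies were matches of at least 95% identity over 101 bases or more in transcripts of other genes. The procedure was tested on simulated data.

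Genes named with values were the catalytic and electron-carrying subunits of complexes II and III, the 3 highest and 3 lowest of the other subunits and of the assembly factors in each complex, the c-ring trio, members below both controls and members under the filter. Cox7a2l, Cox19, Uqcrq, Atp5s, Atp5c1, Atp5d and the genes of the other pathway lists given with values were named after their values were seen. The members and lists were chosen with earlier results of these data known. Alternatives covered the pseudocount, filter, scaling, fold, gene set and length.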

Additional observations from a re-analysis of the deposited data

How the results depend on the processing

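Each substrate had 1 library, so none could be left out. No paired analysis was possible because no substrate has a second library. The log2 medians over the members (0.62 against GelMA, 0.48 against TCP and -0.15 between the controls) and those of the complexes kept their sign under each alternative run. The main counts were 49 members above both controls and 14 at 1.5-fold. Median-of-ratios scaling moved none of them beyond counting error. A pseudocount of 0.1 gave 0.52 for complex II and 16 members at 1.5-fold, a filter on a mean CPM of 5 gave 0.51 for complex II and 48 above both controls, and no filter gave 0.46 for complex IV and 50 above both controls. The order of the complexes changed among the alternatives. With total counts and no scaling factor the median of all genes moved from 0.03 to -0.10 against GelMA and from 0.04 to -0.06 against TCP, and the members gave 0.47, 0.37 and -0.11, with 0.36, 0.38, 0.41 and 0.46 for complexes II to V, 48 members above (35.4% of all genes) and 5 below both controls and 10 at 1.5-fold (4.84%). All genes at 1.5-fold were then 637 higher and 1406 lower, instead of 1064 and 946. Correction for transcript length gave 0.15, 0.09 and -0.11, with 32 members above (41.1% of all genes) and 14 below both controls, 1 at 1.5-fold (3.02%), and 0.17, 0.14, 0.037 and 0.13 by complex. Correction for coding length, added after seeing the data, gave 0.13, 0.047 and -0.0875, with 34 above (42.0%) and 12 below, 0 at 1.5-fold (2.44%), and 0.079, 0.16, 0.0335 and 0.18. Structural subunits alone gave 34 above both controls, 11 at 1.5-fold, 0.66 against GelMA, 0.52 for complex II and 0.76 for complex IV, and a 2-fold threshold left 0 members. The 33 members with no near copy, a setting also added later, gave 0.51, 0.34 and -0.12, with 30 above both controls, 7 at 1.5-fold, and 0.43, 0.37 and 0.49 for complexes III, IV and V. Of 38 genes named by the rule, 33 lay above the mean of the controls, and 27 did under either length correction. The cause of these shifts was not tested. Counting error was small beside them (median 0.03 to either side), and variation between cultures is unknown.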
